A study of Homo sapiens with 10 samples.

Results

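The ERBB receptors and the growth factors that activate them were followed through a progestin response in breast cancer cells. The set was listed by gene name, with no threshold on a measured value, but with earlier results of these data known. It holds the 4 receptor genes EGFR, ERBB2, ERBB3 and ERBB4, the 5 ligand genes AREG, HBEGF, TGFA, NRG1 and BTC, and ERRFI1, which encodes a feedback inhibitor of EGFR and ERBB2. Each gene took all probe sets annotated to its symbol alone. In this way 8 of the 10 genes were measured by 25 of the 22277 probe sets on the array, 12 for receptors and 13 for ligands. AREG and ERRFI1 had no such probe set and were not analysed here.

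The cells were T47D-Y, a line without progesterone receptor (PR) derived from the luminal breast cancer line T47D, that carried 1 of 3 inducible vectors. The iKR line carried PR with the K388R change, which removes the lysine that takes up SUMO, the iWT line carried wild-type PR, and the iEV line carried the vector without PR. All cells were serum-starved and received the dimerizer AP21967, which switches on the vector, or ethanol for 2 days, and then the synthetic progestin R5020 or ethanol (vehicle) for 6 h. Both receptor lines were measured in all 4 combinations of AP21967 and R5020, whereas iEV was measured with AP21967 and with ethanol but never with R5020. Each condition had 1 Affymetrix array, 10 in all. The doses in the labels, taken literally, are 10 nM AP21967 and 100 nM R5020, and 1 nM and 10 nM if meant as exponents, the form used in the study's methods. Each vector was represented by 1 line, so vector and line cannot be told apart.

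ERBB receptors are tyrosine kinases of the cell surface that pair up when a ligand of the EGF type binds, and then signal through the RAS-ERK and PI3K-AKT pathways. EGFR binds HBEGF, TGFA, AREG and BTC, whereas ERBB3 and ERBB4 bind neuregulins such as NRG1. ERBB2 has no known ligand and acts as the partner of the others, and ERBB3 has little kinase activity of its own. In breast, ERBB2 is known for its amplification in a subtype of cancer, and its pair with ERBB3 is a strong activator of PI3K.

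PR and related steroid receptors bind DNA at inverted repeats whose core is AGAACA, or TGTTCT on the other strand. RefSeq promoter windows (GRCh38.p14, from 250 bases before to 50 bases after a transcript start) were given for 8 of the 10 genes, in 10 windows. ERBB3 and NRG1 are the others. AGAACA or its complement stood in 4 windows, 1 each of EGFR, ERBB2, ERBB4 and TGFA, against 14.8% of all 35116 windows of this length. The windows of 3 genes that changed with R5020 are printed, with the core in capitals. EGFR has 2 RefSeq windows, the first on chr7:55018767-55019066 at the start of the gene and the second on chr7:55109589-55109888 at a start inside it, both on the plus strand. The ERBB2 window is chr17:39687844-39688143 on the plus strand, and the HBEGF window is chr5:140346554-140346853 on the minus strand.
EGFR window 1: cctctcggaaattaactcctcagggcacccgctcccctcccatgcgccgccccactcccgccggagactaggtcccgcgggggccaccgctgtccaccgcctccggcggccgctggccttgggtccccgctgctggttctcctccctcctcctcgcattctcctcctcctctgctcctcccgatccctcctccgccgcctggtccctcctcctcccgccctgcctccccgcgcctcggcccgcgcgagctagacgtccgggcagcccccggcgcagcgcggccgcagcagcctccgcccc
EGFR window 2: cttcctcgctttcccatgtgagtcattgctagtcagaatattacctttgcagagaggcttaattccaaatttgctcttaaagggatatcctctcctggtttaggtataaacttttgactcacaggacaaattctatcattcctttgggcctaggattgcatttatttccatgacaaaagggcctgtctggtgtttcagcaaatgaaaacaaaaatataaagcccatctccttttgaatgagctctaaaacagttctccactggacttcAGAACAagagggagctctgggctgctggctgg
ERBB2 window: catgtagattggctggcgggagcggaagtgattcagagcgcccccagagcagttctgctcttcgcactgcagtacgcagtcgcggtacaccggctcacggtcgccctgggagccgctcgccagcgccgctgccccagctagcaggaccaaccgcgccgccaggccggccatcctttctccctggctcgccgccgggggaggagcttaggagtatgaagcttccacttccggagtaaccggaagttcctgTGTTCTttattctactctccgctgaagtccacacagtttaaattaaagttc
HBEGF window: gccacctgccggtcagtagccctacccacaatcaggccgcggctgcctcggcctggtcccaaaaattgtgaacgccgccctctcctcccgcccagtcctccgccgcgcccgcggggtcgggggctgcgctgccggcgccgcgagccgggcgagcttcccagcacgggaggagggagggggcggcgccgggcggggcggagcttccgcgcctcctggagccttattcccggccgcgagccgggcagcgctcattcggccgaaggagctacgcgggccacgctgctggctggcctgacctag
The first EGFR window and the HBEGF window held no core. In the second EGFR window the core began 18 bases past the start, and in the ERBB2 window it began 1 base before it. A match of 6 letters describes the sequence and is not a binding site, and binding was not measured here.

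All values are log2 probe set signals from Robust Multi-array Average (RMA), and a difference of 1 is a doubling. Differences between single arrays have no replicate check. For a test, limma was fitted to all probe sets on the 8 iKR and iWT arrays with an R5020 effect shared by both lines. The lines thus served as the replicates, 2 residual degrees of freedom were left, and p-values measure only the spread between these arrays. A probe set was called when its Benjamini-Hochberg adjusted p over all 22277 probe sets was under 0.05. Where a gene is counted once, the probe set that is brightest on average stands for it.

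PGR, the gene of the vector's receptor, was between 10.65 and 12.08 on the 8 iKR and iWT arrays, the lowest being uninduced, and at 6.17 and 6.25 on the iEV arrays. PGR mRNA was therefore high in both receptor lines also without AP21967. With vehicle it read 12.08 with AP21967 and 10.65 without it in iKR, and 11.34 and 11.12 in iWT. With R5020 it read 11.38 with AP21967 and 11.43 without it in iKR, and 11.89 and 11.77 in iWT. Arrays with AP21967 are called induced below. The part of these PGR differences in the results below was not tested. The 8 luminal epithelial markers had medians of 10.4 to 15.0 over the arrays. Of the 12 measured basal, mesenchymal, fibroblast, endothelial and leukocyte markers, the highest median was 9.73 (COL1A1), and limma called 0 of them for R5020, with 1 (ZEB1, higher) at an unadjusted p under 0.05. The mean of the 8 luminal markers was 12.7 and 13.1 on the induced R5020 arrays, against 13.1 and 13.3 on the induced vehicle arrays. ESR1, GATA3 and FOXA1 fell, with the same sign on 5 of the 9 ESR1 probe sets and a call on 1 of them. KRT8, KRT18, KRT19, EPCAM and CDH1 were not called, although 6 of the 8 markers were lower at an unadjusted p under 0.05. Of all genes, 4.92% were called higher and 6.09% lower by limma. Before adjustment 11.9% were higher and 14.2% lower at a p under 0.05. The part of these markers in the results below was not tested. In bulk RNA, fewer cells of a type and less RNA per cell cannot be told apart.

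With induced receptor, R5020 was accompanied by more EGFR mRNA and less ERBB2 and ERBB3 mRNA in both receptor lines, and by more HBEGF mRNA. The change was largest for EGFR, at 3.48 fold in iKR and 2.29 fold in iWT on its most responsive probe set. Over the 25 probe sets, limma called 3 higher (EGFR 201983_s_at and 201984_s_at and HBEGF 203821_at) and 2 lower (ERBB2 216836_s_at and ERBB3 202454_s_at), against 4.61% of all probe sets called higher and 5.25% called lower. Before adjustment, 11 had a p under 0.05 as higher and 3 as lower, against 11.4% and 12.9% of all probe sets. Counted by gene, 1 of 8 was called higher (HBEGF) and 2 lower (ERBB2 and ERBB3), against 4.92% and 6.09% of all 11963 genes. EGFR, counted by its brightest probe set 211607_x_at, was not called there (adjusted p = 0.0507 by limma). The median shared effect of the 8 genes was 0.09, and that of all genes was 0.01.

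**Figure D1:**
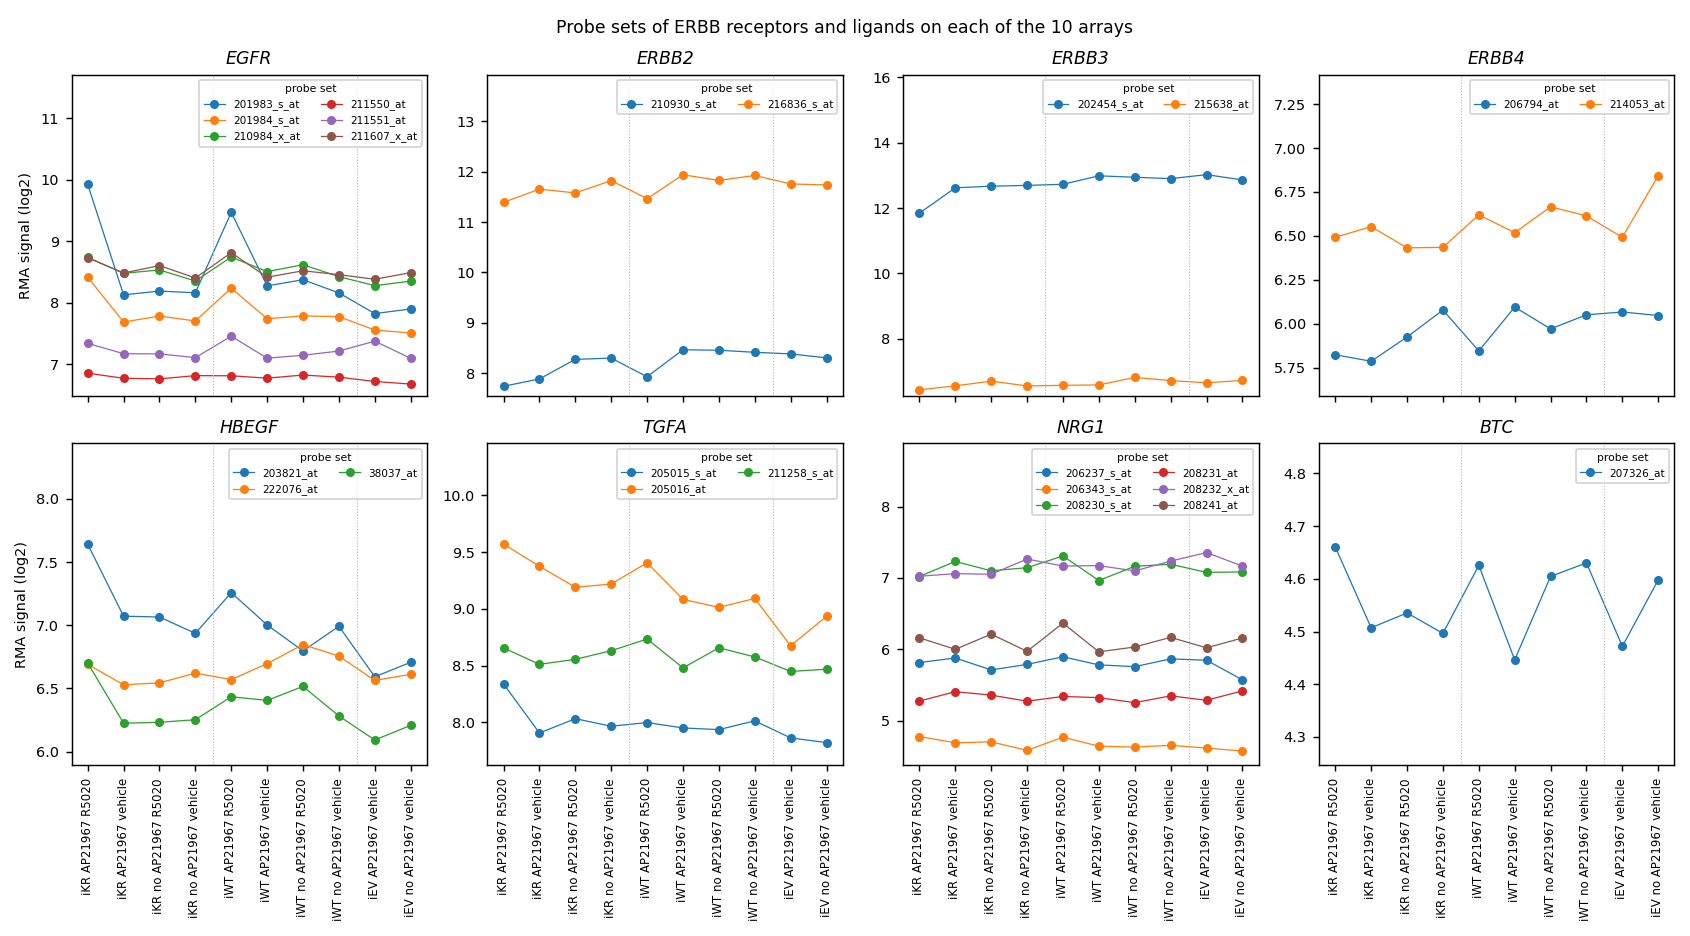
RMA signal (log2, y axis) of every probe set of the 8 measured genes on each of the 10 arrays (x axis), with 1 point per array, 1 colour per probe set and lines only to guide the eye; the y axes differ between genes and do not start at 0. EGFR 201983_s_at stands at 9.93 and 9.47 on the induced R5020 arrays of iKR and iWT, and at 8.38 or below on the other 8 arrays.

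EGFR, the receptor for EGF itself, has 6 probe sets. On 201983_s_at the induced iKR arrays read 9.93 with R5020 and 8.13 with vehicle, and the uninduced iKR arrays read 8.19 with R5020 and 8.16 with vehicle. The induced iWT arrays read 9.47 with R5020 and 8.28 with vehicle, and the uninduced iWT arrays 8.38 with R5020 and 8.16 with vehicle. The iEV arrays read 7.82 with AP21967 and 7.90 without it. Both induced R5020 arrays therefore lay more than 1 log2 unit above the other 8, which spanned 0.55. The shared R5020 effect with AP21967 was 1.496 (standard error 0.13, adjusted p = 7.63e-05 by limma), and EGFR rose on this probe set. Without AP21967 the single-array differences were 0.03 in iKR and 0.21 in iWT. The effect with AP21967 exceeded that without it by 1.38 (standard error 0.18, adjusted p = 0.00425 by limma), so the response depended on the inducer.

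The second EGFR probe set, 201984_s_at, followed the first closely, with a Pearson r of 0.988 over the 10 arrays. It read 8.42 with R5020 and 7.69 with vehicle in induced iKR, and 8.24 with R5020 and 7.74 with vehicle in induced iWT. The other 6 arrays ranged between 7.51 and 7.79, so the groups did not overlap here either. Its shared effect was 0.61 (standard error 0.09, adjusted p = 0.00208 by limma). The excess over the effect without AP21967 was 0.57, with an adjusted p of 0.058 by limma. It was 0.45 without either induced iKR array and 0.68 without either induced iWT array, where 1 line alone gives the induced effect.

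The other 4 EGFR probe sets moved the same way by less. 211607_x_at, which stands for the gene in counts of genes, read 8.73 with R5020 and 8.48 with vehicle in induced iKR, and 8.82 with R5020 and 8.42 with vehicle in induced iWT. Its shared effect of 0.32 narrowly missed the threshold (adjusted p = 0.0507 by limma). Without either induced iKR array the estimate is the iWT difference alone, 0.40. 210984_x_at had an effect of 0.25 (adjusted p = 0.105) and 211551_at of 0.26 (adjusted p = 0.0934). 211550_at stayed between 6.68 and 6.86 on all arrays and had an effect of 0.06. All 6 EGFR probe sets were higher with R5020 in both lines, by 0.08 to 1.80 in iKR and by 0.04 to 1.20 in iWT, and their pairwise r over the 10 arrays ran between 0.247 and 0.988 with a median of 0.709 over 15 pairs. Probe sets of a gene read the same RNA and are not replicates. The gene's size of response therefore depended on which probe set was read: averaged over its 6 probe sets EGFR was called, at 0.50 (adjusted p = 0.00465).

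**Figure D2:**
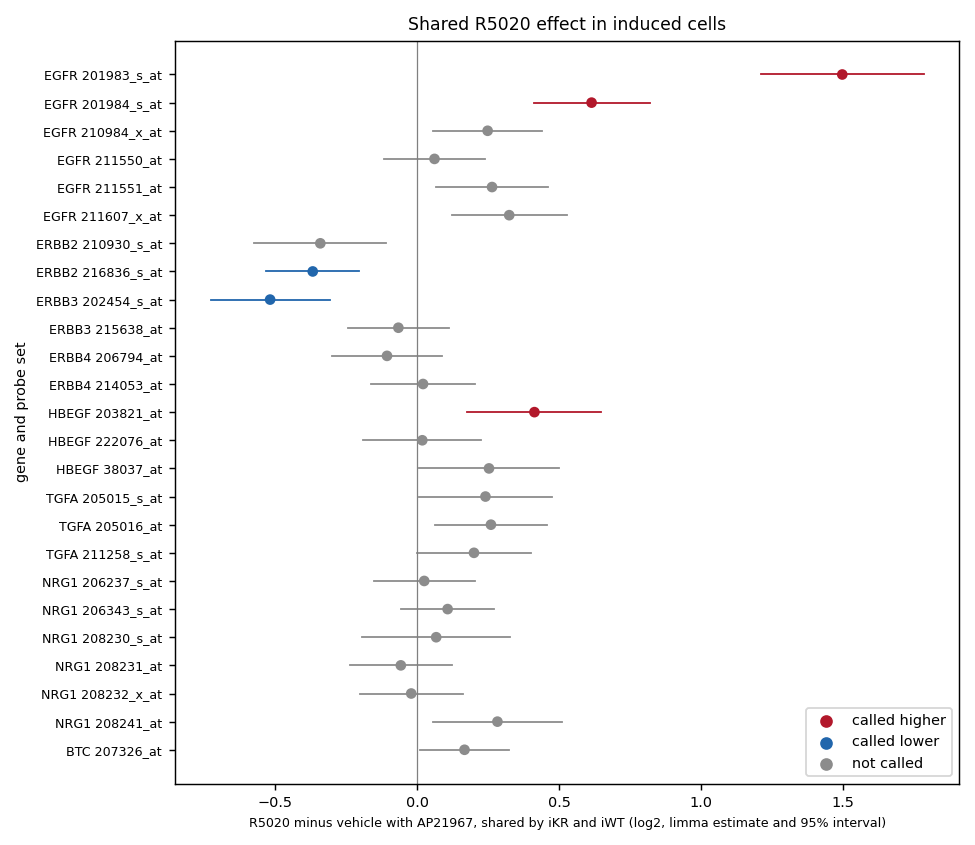
Shared R5020 minus vehicle effect with AP21967 (log2, x axis) for each of the 25 probe sets (y axis), as the limma estimate with its 95% interval; red is called higher, blue called lower and grey not called. EGFR 201983_s_at lies farthest from 0 at 1.496, and ERBB3 202454_s_at is lowest at -0.52.

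ERBB2, the partner receptor without a ligand, was lower with R5020 in both lines. 216836_s_at read 11.39 with R5020 and 11.65 with vehicle in induced iKR, and 11.46 with R5020 and 11.94 with vehicle in induced iWT. The uninduced arrays read 11.58 with R5020 and 11.82 with vehicle in iKR, and 11.83 with R5020 and 11.92 with vehicle in iWT. The iEV arrays read 11.76 with AP21967 and 11.74 without it. Both induced R5020 arrays lay below all 8 others, the nearest of which was uninduced iKR with R5020. The shared effect with AP21967 was -0.37 (standard error 0.07, adjusted p = 0.0108 by limma), and ERBB2 fell. Without AP21967 the effect was -0.17, at an unadjusted p of 0.043 and an adjusted p of 1.00, and the excess of the induced over the uninduced effect was -0.20 (adjusted p = 0.468). In iKR the single-array differences were -0.26 with AP21967 and -0.24 without it. In iWT they were -0.47 with AP21967 and -0.10 without it. Without either induced iKR array, iWT alone gives the induced effect, and the excess was -0.30. The uninduced effect rests on the uninduced arrays alone, so leaving out an induced array cannot change it.

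The second ERBB2 probe set, 210930_s_at, had a shared effect of -0.34 that missed the threshold (adjusted p = 0.0684 by limma). Without either induced iKR array the estimate is the iWT difference alone, -0.54. It read 7.74 with R5020 and 7.88 with vehicle in induced iKR, and 7.93 with R5020 and 8.46 with vehicle in induced iWT, against 8.27 to 8.45 on the uninduced arrays of both lines. Induced iKR with vehicle was thus already low on this probe set, which overlaps the R5020 arrays. AP21967 alone had a difference of -0.41 in iKR, 0.05 in iWT and 0.08 in iEV. The probe sets of ERBB2 had an r of 0.866 over the 10 arrays.

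ERBB3, the neuregulin receptor that pairs with ERBB2, fell, and its single-array difference was the larger one in iKR. 202454_s_at read 11.84 with R5020 and 12.62 with vehicle in induced iKR, and 12.73 with R5020 and 12.99 with vehicle in induced iWT. The 4 uninduced arrays ranged between 12.67 and 12.94, and the iEV arrays read 13.02 with AP21967 and 12.86 without it. The induced R5020 array of iKR was the lowest of all 10, whereas that of iWT lay within the range of the other 8. The shared effect was -0.52 (standard error 0.09, adjusted p = 0.00657 by limma). Without either induced iKR array the estimate is the iWT difference alone, -0.26, and without either induced iWT array it is the iKR difference alone, -0.78. The excess over the uninduced effect was -0.53 (adjusted p = 0.0849). It was -0.79 without either induced iWT array and -0.27 without either induced iKR array. The dimmer probe set 215638_at had differences of -0.12 in iKR and -0.01 in iWT (shared effect -0.07, adjusted p = 0.677), and the mean of both probe sets was not called, at -0.29 (adjusted p = 0.0875).

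ERBB4, the other neuregulin receptor, showed no call. 214053_at ranged between 6.43 and 6.84 over all arrays, its highest value being uninduced iEV, and 206794_at between 5.79 and 6.09. The shared effects were 0.02 and -0.11, and the 95% interval of the first ran between -0.16 and 0.20. The probe sets were close to unrelated over the arrays, with an r of 0.081.

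**Figure D3:**
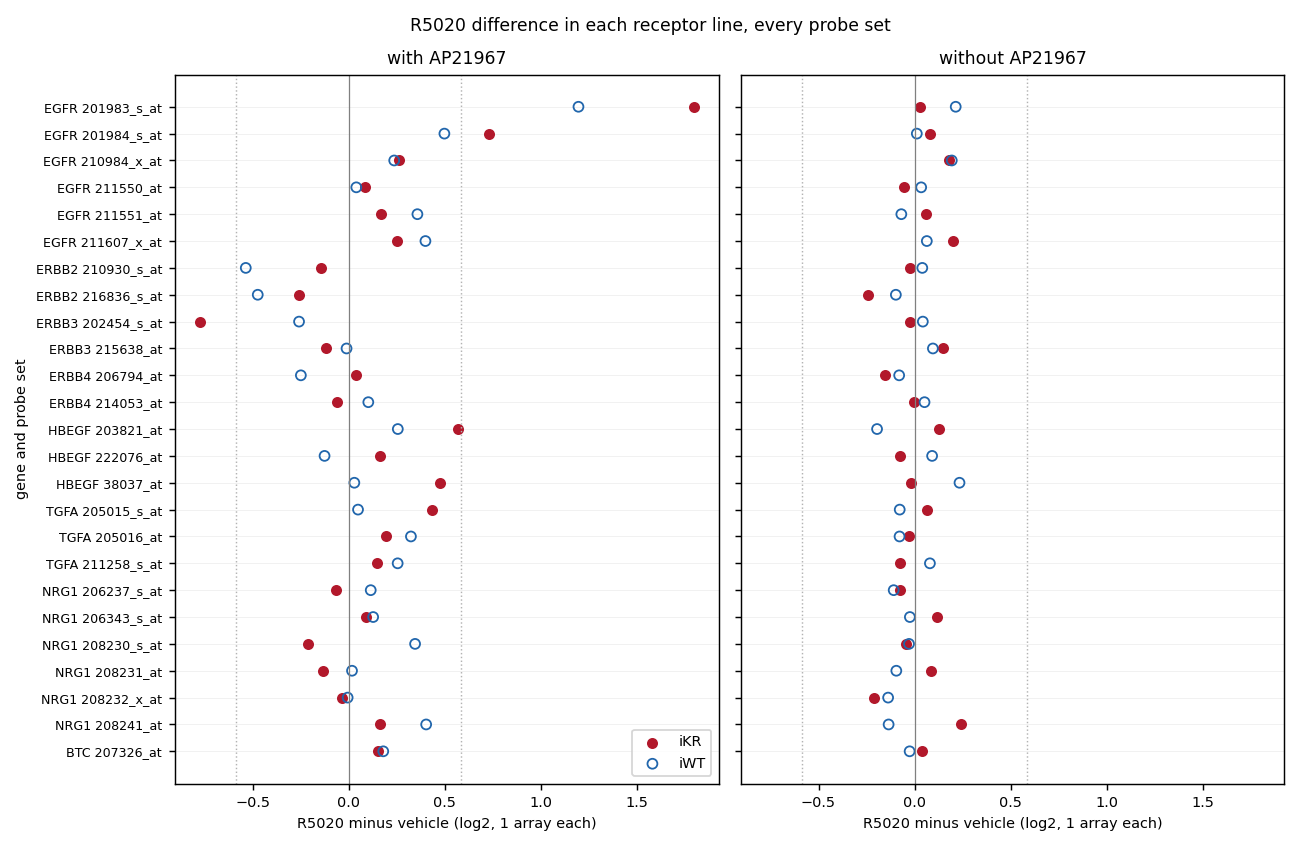
R5020 minus vehicle on single arrays (log2, x axis) for each of the 25 probe sets (y axis) in iKR (filled) and iWT (open), with AP21967 in the left panel and without it in the right panel; dotted lines mark 1.5 fold. With AP21967, EGFR reaches 1.80 in iKR and 1.20 in iWT, and without AP21967 the values lie between -0.24 and 0.24.

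HBEGF, a membrane-bound EGFR ligand that is shed to the medium, rose on 203821_at. This probe set read 7.64 with R5020 and 7.07 with vehicle in induced iKR, and 7.26 with R5020 and 7.002 with vehicle in induced iWT. The uninduced arrays read 7.07 with R5020 and 6.94 with vehicle in iKR, and 6.80 with R5020 and 6.99 with vehicle in iWT. The iEV arrays were lowest, at 6.59 with AP21967 and 6.71 without it. The induced R5020 arrays were the highest of the 10. The shared effect was 0.41 (standard error 0.11, adjusted p = 0.0347 by limma). Leaving out either induced iKR array leaves the iWT difference alone, 0.26, which is smaller. HBEGF was not called when its 3 probe sets were averaged (0.23, adjusted p = 0.156 by limma). 38037_at had differences of 0.48 in iKR and 0.03 in iWT, and 222076_at of 0.16 in iKR and -0.13 in iWT, so the HBEGF probe sets had the same sign in iKR only.

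TGFA, another EGFR ligand, was higher with R5020 on all 3 probe sets in both lines without being called. 205016_at read 9.57 with R5020 and 9.38 with vehicle in induced iKR, and 9.41 with R5020 and 9.08 with vehicle in induced iWT. The 4 uninduced arrays ranged between 9.01 and 9.22, and the iEV arrays read 8.67 with AP21967 and 8.93 without it. The induced R5020 arrays were again the highest, with induced iKR and vehicle close behind. The shared effects were 0.26, 0.24 and 0.20 on 205016_at, 205015_s_at and 211258_s_at, with adjusted p-values of 0.0971, 0.196 and 0.211 by limma. With an induced array left out, 1 line alone gives the estimate. For 205016_at it was then 0.32 from iWT or 0.20 from iKR. For 205015_s_at it was 0.05 from iWT or 0.43 from iKR. The 3 probe sets had pairwise r of 0.542 to 0.719.

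NRG1, the neuregulin that binds ERBB3 and ERBB4, and BTC, a ligand of EGFR and ERBB4, were not called on any probe set. The 6 NRG1 probe sets had differences of -0.21 to 0.16 in iKR and -0.01 to 0.40 in iWT, and 3 of them had opposite signs in the lines. Their pairwise r ranged between -0.585 and 0.612. The NRG1 probe set with the largest shared effect was 208241_at, at 0.28 (adjusted p = 0.118 by limma). BTC stayed between 4.45 and 4.66 on all arrays and had a shared effect of 0.17 (adjusted p = 0.178). The widest range of an NRG1 or BTC probe set over the 10 arrays was 0.40.

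Read across the family, both induced R5020 arrays lay above all 8 others on 7 probe sets, namely 4 of EGFR, 1 each of HBEGF and TGFA, and NRG1 206343_s_at, and below them on ERBB2 216836_s_at. Over all probe sets this was so for 10.4% above and 7.6% below. Past 1.5 fold on single arrays, 2 probe sets were higher and 1 lower in induced iKR (2.45% and 2.57% of all probe sets), and 1 higher and 0 lower in induced iWT (1.33% and 0.884%). These are EGFR 201983_s_at, EGFR 201984_s_at and ERBB3 202454_s_at in iKR, and EGFR 201983_s_at in iWT. Without AP21967, 0 of the 25 passed 1.5 fold in either line, a fold that 0.0673% of all probe sets passed upward and 0.00449% downward in iKR (0.0539% and 0.0224% in iWT).

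The R5020 difference of iKR exceeded that of iWT in size on 12 of the 25 probe sets. The excess of the iKR over the iWT difference passed 1.5 fold on 1 probe set, EGFR 201983_s_at, at 0.60, and was lowest on NRG1 208230_s_at, at -0.56. ERBB3 202454_s_at followed at -0.52, since it fell by 0.78 in iKR and by 0.26 in iWT. For ERBB2 the fall was smaller in iKR, at -0.26, than in iWT, at -0.47. With 1 array per condition none of these differences between the receptors was tested. Past 1.5 fold, 0.835% of all probe sets lay higher in iKR by this measure and 1.41% lower.

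Without AP21967, limma called 0 of the 25 probe sets for R5020, against 0.00898% of all probe sets called higher and 0 called lower. Before adjustment, 1 probe set had a p under 0.05, ERBB2 216836_s_at, and it was lower, as were 2.22% of all probe sets. For the excess of the induced over the uninduced effect, 1 of 25 was called higher and 0 lower, against 1.33% and 0.619% of all probe sets. This was EGFR 201983_s_at. Before adjustment, 4 were higher and 2 lower at a p under 0.05, against 7.38% and 6.06% of all probe sets.

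The part of the pathway that carries the signal inward was read from lists of named genes, each by its brightest probe set, in the same comparison of R5020 with vehicle in induced cells. These lists and those below were chosen with earlier results of these data known. Their counts beside the share of all genes are a description and not a test. Of 11 measured adaptors and transducers that dock on active receptors, 4 rose and 2 fell by limma, with a median of 0.03, against 4.92% and 6.09% of all genes and a median of 0.01. GRB10, an adaptor that binds growth factor receptors, rose by 1.38 (1.56 in iKR and 1.20 in iWT) on all 4 of its probe sets. PLCG1, the phospholipase recruited by EGFR, rose by 0.84, and SOS1, an exchange factor that activates RAS, by 0.74 (adjusted p of 0.0021 and 0.000877). SOS2, the close relative of SOS1, fell by 0.48 on its brightest probe set, with the same sign on 3 of its 5 probe sets and a call on 1. GRB2 also rose and GRB7, which binds ERBB2 and ERBB3, also fell.

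Of 14 measured negative regulators, 3 rose and 5 fell, with a median of -0.12, against the same 4.92% and 6.09% of all genes. LRIG1, a membrane protein that drives ERBB receptors to degradation, rose by 0.74 (0.77 in iKR and 0.72 in iWT, adjusted p = 0.000385 by limma). DUSP6, a phosphatase of ERK, fell by 0.90, with -0.42 in iKR and -1.39 in iWT, so the lines were far apart. SPRED2, an inhibitor of RAS-ERK signalling, fell by 0.58 and DUSP5, another ERK phosphatase, by 0.54. The other calls were CBLB and DUSP4, higher, and PTPN12 and SPRY2, lower. The list thus held genes that moved in both directions.

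Of 8 transcription factors known to act on ERBB receptor genes, 5 fell and 0 rose by limma (median -0.56), where 6.09% of all genes fell and 4.92% rose. The AP-2 factors, which bind the promoters of ERBB2 and ERBB3, fell in both lines. TFAP2C was lower by 0.92 in iKR and by 0.78 in iWT (shared effect -0.85, adjusted p = 6.1e-05), and TFAP2A by 0.82 in iKR and by 0.67 in iWT (-0.74, adjusted p = 0.00013). The ETS factors SPDEF and ELF3 fell by 0.66 each, and TFAP2B fell too. SP1, EGR1 and YBX1 were not called. ELF3 and SPDEF are also genes of the luminal epithelium, whose markers ESR1, GATA3 and FOXA1 fell too, and no relation between these factors and the receptor genes was tested.

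**Figure D4:**
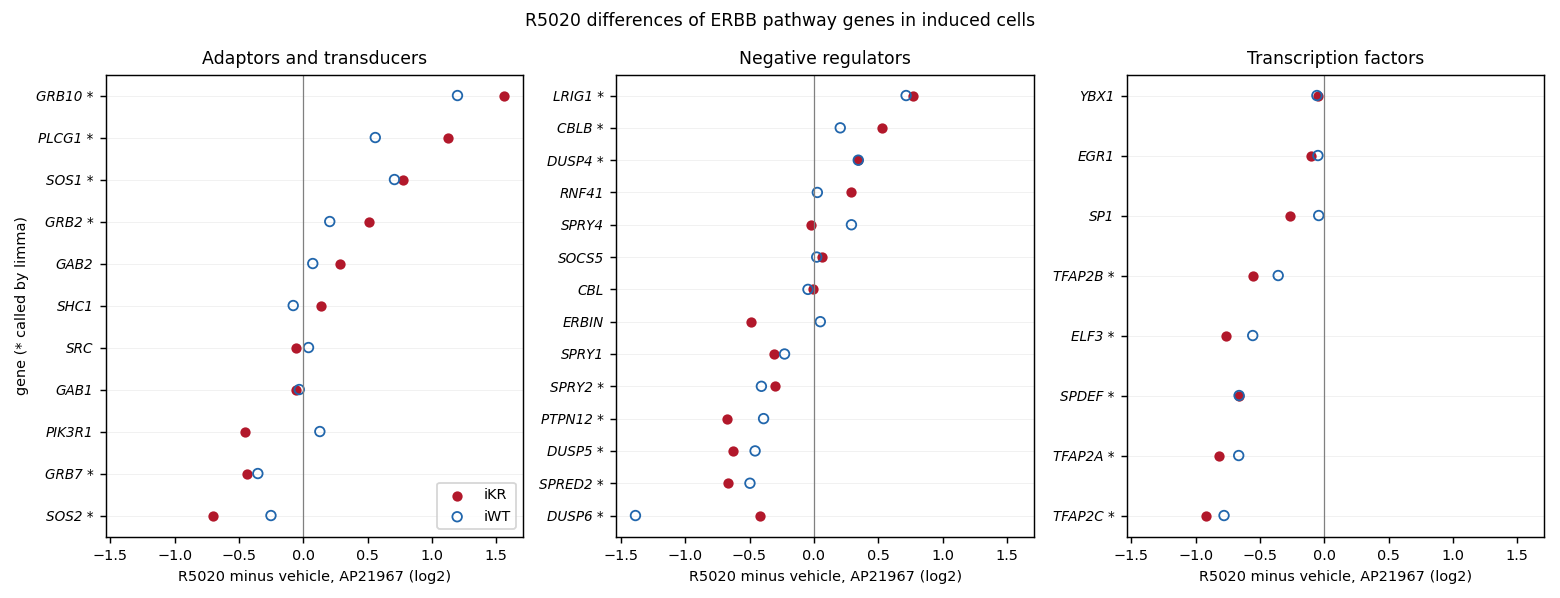
R5020 minus vehicle with AP21967 (log2, x axis) on single arrays of iKR (filled) and iWT (open) for the measured adaptors, negative regulators and transcription factors (y axis), with an asterisk on genes called by limma for the shared effect. GRB10 lies farthest to the right at 1.56 and 1.20, and the 5 called transcription factors lie left of 0 in both lines.

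The remaining lists held few calls. Of 6 measured ADAM proteases, the family that sheds EGF-type ligands, limma called 0 (median -0.05), with 1 lower before adjustment at a p under 0.05. Of 3 further EGF-type ligands, EGF, EREG and NRG2, it called 0 (median 0.13), with 1 higher before adjustment. Of 10 measured genes that lie near ERBB2 on chromosome arm 17q and are often amplified with it, 1 rose and 1 fell, with a median of -0.08. PNMT rose by 0.85 (adjusted p = 0.00172 by limma), and GRB7 fell by 0.40. A single call each way among 10 genes is close to the 4.92% and 6.09% of all genes.

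Comparison of the lines without R5020 asked what the vectors and the inducer alone were accompanied by. It used the 6 arrays without R5020, with a term for AP21967, and treated the arrays of a line with and without AP21967 as replicates. TGFA and HBEGF were higher in both receptor lines than in iEV on the brightest probe set of each gene. TGFA 205016_at was higher by 0.49 in iKR (adjusted p = 0.00187) and by 0.28 in iWT (adjusted p = 0.0453), and HBEGF 203821_at by 0.35 in each (adjusted p of 0.012 and 0.0145). The other probe sets of these genes were not called. They differed by 0.09 and 0.11 in iKR and by 0.14 and 0.07 in iWT for TGFA, and by -0.01 and 0.09 in iKR and by 0.14 and 0.19 in iWT for HBEGF. Averaged over probe sets, HBEGF was not called in iKR (0.14, adjusted p = 0.165) and TGFA was not called in iWT (0.16, adjusted p = 0.0683). EGFR 201983_s_at was higher by 0.28 in iKR and by 0.36 in iWT (adjusted p of 0.0227 and 0.00713 by limma), whereas EGFR 211607_x_at differed by 0.01 and 0.00.

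ERBB3 was lower in iKR by 0.28 than in iEV (adjusted p = 0.00157) and was not called in iWT, at 0.00 with a 95% interval of -0.11 to 0.11. The iKR minus iWT difference of ERBB3 was -0.29 (adjusted p = 0.00603 by limma). The vehicle arrays of iKR read 12.62 and 12.70, against 12.99 and 12.90 in iWT and 13.02 and 12.86 in iEV, each with and without AP21967 in that order. The iKR arrays were thus below all others on this probe set before R5020 was given. The dimmer ERBB3 215638_at differed from iEV by -0.13 in iKR and by -0.03 in iWT. Its iKR minus iWT difference was -0.10, and none of these was called. ERBB2 216836_s_at was higher in iWT by 0.19 than in iEV (adjusted p = 0.0279), and its difference of -0.01 in iKR was not called. The dimmer ERBB2 210930_s_at differed from iEV by 0.10 in iWT and by -0.25 in iKR. Its iKR minus iWT difference was -0.35, and none of these was called. Averaged over probe sets, ERBB2 was not called in iWT against iEV (0.14, adjusted p = 0.252 by limma).

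By gene, 2 of 8 were called higher and 1 lower in iKR against iEV, where 12.7% and 12.8% of all genes were. In iWT against iEV, 3 were called higher and 0 lower, where 11.7% of all genes were called in each direction. Between iKR and iWT, 0 were called higher and 1 lower, against 3.34% and 2.83% of all genes. Several of these calls rest on single arrays. Leaving out 1 array leaves 1 array in a line, so effect sizes alone are given. The 3 differences called in iWT lay between 0.14 and 0.35 without either iWT array. Without induced iEV, those of HBEGF and TGFA were 0.25 and 0.12, and without uninduced iEV that of ERBB2 was 0.14. In iKR against iEV, HBEGF was 0.26 without induced iKR or without induced iEV, and TGFA was 0.35 without induced iKR. The ERBB3 difference between iKR and iWT was -0.31 and -0.27 without an iWT array, and -0.19 without induced iKR. That of ERBB2 was -0.19 with all arrays and -0.29 without uninduced iKR. The iEV arrays do not enter the iKR minus iWT estimates, so leaving them out cannot change these. ERBB4 in iKR against iEV was -0.36 without induced iEV. The iKR and iWT comparisons share the iEV arrays. The luminal markers also differed, with 3 of 8 called lower in iKR against iEV and 1 called higher in iWT, and their means were 13.1 and 13.2 in iKR and 13.3 in both iWT arrays, against 13.3 in both iEV arrays. Their part in the line differences was not tested.

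**Figure D5:**
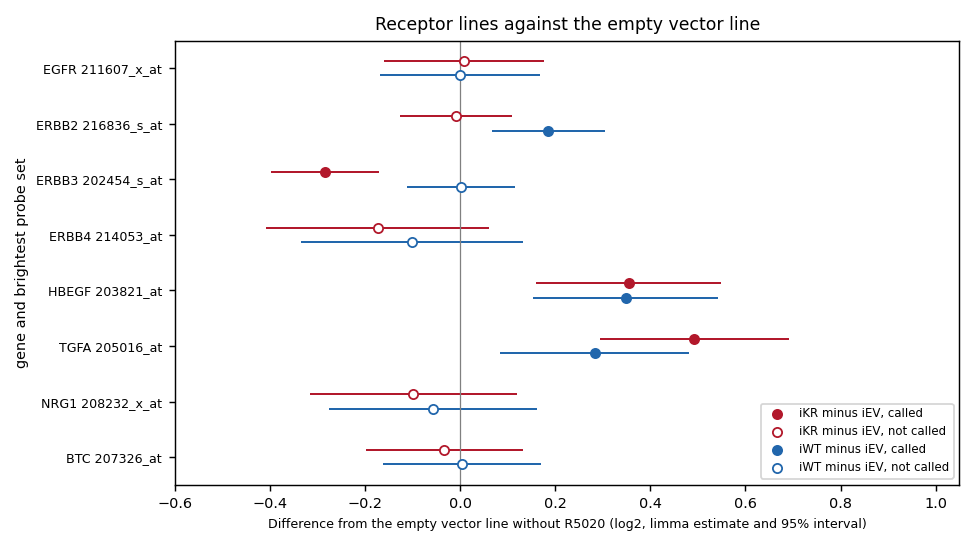
Difference of iKR (red) and iWT (blue) from iEV on arrays without R5020 (log2, x axis) for the brightest probe set of each of the 8 genes (y axis), as the limma estimate with its 95% interval; filled points were called and open points were not. TGFA lies at 0.49 and 0.28 and HBEGF at 0.35 in both lines, and ERBB3 is called lower in iKR alone, at -0.28.

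AP21967 alone, without R5020, called 0 of the 25 probe sets by limma, and 0 of them had an unadjusted p under 0.05; 0% of all probe sets were called in either direction, although before adjustment 1014 had a p under 0.05 as higher and 804 as lower. The single-array differences of the 25 probe sets ran between -0.41 and 0.16 in iKR, between -0.23 and 0.12 in iWT and between -0.35 and 0.28 in iEV. EGFR 201983_s_at differed by -0.03 in iKR, 0.11 in iWT and -0.08 in iEV. The spread of the receptor lines was thus no wider than that of the line without PR, except for the low value of ERBB2 210930_s_at in iKR.

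Among 776 genes with a standard deviation of 0.3 or more over the arrays, those with the pattern most like EGFR 211607_x_at by Pearson r over the 10 arrays were CBLL1 (0.94), RNF144A (0.929), PMAIP1 (0.926), IL20RA (0.925) and KLF4 (0.924). For HBEGF 203821_at they were TACC2 (0.981), TUBB2A (0.972), ZCCHC14 (0.968), TNFRSF21 (0.967) and GTPBP2 (0.962). For ERBB2 216836_s_at they were ZNF467 (0.976), SOX12 (0.942), NOTCH3 (0.938), SPDEF (0.93) and PIK3R3 (0.916). All points share the same 10 arrays, and these values describe likeness only.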

How the data were processed

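RNA of 10 conditions was measured, 1 array each. The authors processed the raw files with RMA in the affy package, so the deposited log2 signals are already background-corrected and quantile-normalized; they hold no comparisons. Probe sets were named from the platform annotation, updated through gene identifiers: 19070 of 22277 have 1 gene, 1043 several and 2164 none listed, which gives 11963 genes. Linear models with a mean-variance trend were fitted with limma 3.58.1 (R 4.3.3) to all probe sets. The R5020 model used 8 arrays and 6 parameters, and the line model 6 arrays and 4 parameters, with 2 residual degrees of freedom each. The prior brought the total to 10.6 and 11.2. P-values were adjusted by Benjamini-Hochberg over all probe sets. The fits were tested on simulated data. All members are named, and from each list up to 4 called genes with the largest effect with their values. The members and lists were chosen with earlier results of these data known. Alternatives were a level filter at log2 6, 1 probe set per gene, the mean of probe sets, no _x_at and _s_at probe sets (which may match several transcripts), no trend, cyclic loess, median centring, another fold threshold and leaving out each array. Arrays have no depth, so their number limits the precision. Promoters are from RefSeq (GRCh38.p14). Python 3.11.15, numpy 2.4.6, pandas 2.3.3 and matplotlib 3.10.9 were used.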

Additional observations from a re-analysis of the deposited data

Results flagged for a closer look

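The ERBB4 probe set 214053_at had opposite signs in the receptor lines. R5020 minus vehicle with AP21967 was -0.0607 (log2) in iKR and 0.1014 in iWT. Each value is the difference of 2 single arrays, and the difference between the lines was not tested.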

How the results depend on the processing

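No result changed direction past the threshold under any alternative that was run. The 3 genes called for R5020 with AP21967 became 1 and the 5 probe sets became 1 without _x_at and _s_at probe sets, where HBEGF is the only call, because the EGFR, ERBB2 and ERBB3 probe sets that were called are of this kind. HBEGF was not called after cyclic loess (0.36, adjusted p = 0.0887 by limma). ERBB2 210930_s_at was called after median centring (-0.36, adjusted p = 0.0488). For the excess over the uninduced effect, 2 probe sets were called with the level filter and 0 without _x_at and _s_at probe sets. In iWT against iEV, 3 genes became 1 with averaged probe sets and 1 without the trend. In iKR against iWT, 1 gene became 2 with 1 probe set per gene, and 0 without the trend, without _x_at and _s_at probe sets or with averaged probe sets. The 1 gene past 1.5 fold in induced iKR became 0 at 2.0 fold and 0 with averaged probe sets. This gene was ERBB3, at -0.78 on 202454_s_at, which is short of 2.0 fold. Its other probe set, 215638_at, was at -0.12. Leaving out 1 array gave 3 to 4 genes and 5 to 10 probe sets for R5020 with AP21967 (10 without either induced iKR array), 0 to 1 genes and 0 to 1 probe sets without AP21967, and 0 to 3 genes and 1 to 6 probe sets for the excess. It gave 1 to 3 genes in iKR against iEV (1 without induced iKR), 0 to 3 in iWT against iEV (0 without either iWT array), 0 to 2 in iKR against iWT (0 without either iWT array or induced iKR) and 0 for AP21967 alone. Without an array the fits have 1 residual degree of freedom, and a lone array is assumed to vary like the others. The shares of all genes and probe sets called in these reduced fits are not given. Their counts therefore have no background, and a higher count cannot be read as a larger response of these genes. Cyclic loess and median centring moved the median of all probe sets by less than 0.1. The R5020 model sets R5020 against vehicle within each line and AP21967 state. Beyond this, no pairing by replicate was possible because every label gives replicate 1, so replicate numbers add no block.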
